A study of Mus musculus with 10 samples.

Results

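The Adarb2/Vip class interneuron nuclei were 184 of 11624 mouse brain nuclei profiled by DroNc-seq, a droplet method that sequences the RNA of single nuclei. They were chosen by counts of unique molecular identifiers (UMIs, each counting 1 captured RNA molecule). A member had at least 2 UMIs of Gad1, Gad2 and Slc32a1 together, at least 2 UMIs summed over the 6 class genes Adarb2, Vip, Htr3a, Cnr1, Npas1 and Ndnf, at most 1 Sst UMI, and no Pvalb, Lhx6 or Slc17a6 UMI. The Gad condition alone was met by 826 nuclei, called GABA nuclei below, so that 642 other GABA nuclei were left for comparison. Among these, 190 nuclei with 2 or more UMIs of Lhx6, Sst and Pvalb and no Slc17a6 made up the Lhx6/Sst/Pvalb class. The remaining 10798 nuclei had fewer than 2 Gad UMIs.

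All tissue was frozen brain of C57BL/6 mice, 4 in the study, with no treatment named in the labels. The 10 libraries comprised 5 of hippocampus and 5 of cortex, which the protocol describes as prefrontal. All groups share this strain, and the labels give neither an age nor a genetic change. Libraries are numbered 0 to 3 within a region, and number 0 is split into libraries a and b, which were summed here, so each region has 4 units. Since a number is tied to no mouse in the labels, the p-values measure the spread between units, which may be partly technical.

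Cortical interneurons release GABA onto neighbouring neurons and fall into broad lineages. Those born in the medial ganglionic eminence (MGE) depend on the transcription factor Lhx6 and become mostly parvalbumin and somatostatin cells. Those born in the caudal ganglionic eminence (CGE) and nearby preoptic area include the Vip cells, many of which inhibit other interneurons, the Ndnf, Reln and Lamp5 neurogliaform cells, and the Cck basket cells, whose terminals carry the cannabinoid receptor encoded by Cnr1.

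The class genes set the membership, so their levels are given as a description without a test. Cnr1, the CB1 cannabinoid receptor, had a level of 653 CPM (UMIs of the gene scaled to the same total of UMIs in each group) in members, 121 CPM in other GABA nuclei and 92.8 CPM in nuclei with fewer than 2 Gad UMIs, and a UMI was seen in 70.1% of members and 20.1% of other GABA nuclei. Adarb2, an RNA editing enzyme relative with no known editing activity, had 491 CPM in members and 55.0 CPM in other GABA nuclei, with a UMI in 65.2% of members against 11.1% of other GABA nuclei and 4.68% of nuclei with fewer than 2 Gad UMIs. Vip, a neuropeptide, had 442 CPM in members and 79.6 CPM in other GABA nuclei, and was seen in 29.3% of members. Ndnf, a secreted factor, and Npas1, a transcription factor, were seen in 20.1% and 19.6% of members. Htr3a, the ionotropic serotonin receptor subunit that marks this lineage in transgenic mice, was seen in 6.52% of members, at 36.5 CPM in members and 2.57 CPM in other GABA nuclei. Membership thus rested mainly on Cnr1 and Adarb2, and the label's other genes were each absent from most member nuclei at this depth.

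**Figure D1:**
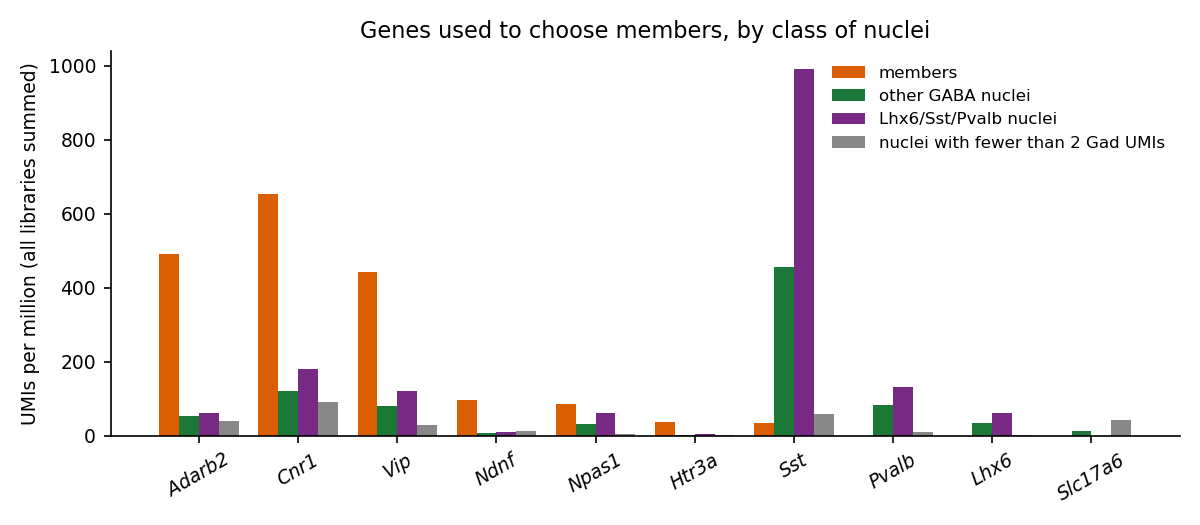
Level of genes used to choose members, in CPM summed over all libraries, with bars for members, other GABA nuclei, Lhx6/Sst/Pvalb nuclei and nuclei with fewer than 2 Gad UMIs, from left to right. The 6 class genes are higher in members and Sst, Pvalb, Lhx6 and Slc17a6 lower because they chose them, with Cnr1 at 653 CPM and Htr3a at 36.5 CPM in members.

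The members were not uniform in what made them pass. A single class gene carried 58 members, 2 class genes carried 69, and 3 or more carried 57. All class UMIs came from Adarb2 in 22 members, from Cnr1 in 20, from Vip in 8 and from Ndnf in 8, and 46 members would not have passed without their Cnr1 UMIs. Just inside the threshold stood 58 members with exactly 2 class UMIs and a median of 2115 UMIs per nucleus. Just outside stood 89 GABA nuclei with 1 class UMI and a median of 2023 UMIs, while 284 GABA nuclei with no class UMI had a median of 1411 UMIs. A further 88 nuclei had enough class UMIs but only 1 Gad UMI, and 65 were stopped by Sst, Pvalb, Lhx6 or Slc17a6 at a median of 6657 UMIs. The nuclei with 1 Gad UMI are not among the other GABA nuclei.

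The libraries held 1443244 to 2600788 UMIs each, and the members held 630927 UMIs in all, 155023 in hippocampus and 475904 in cortex. Members had a median of 2358 UMIs per nucleus, with a range of 560 to 15465, against 1904 in other GABA nuclei and 1162 in nuclei with fewer than 2 Gad UMIs. Over the 8 units the median was 321 UMIs higher in members than in other GABA nuclei, a difference within the spread between units (exact sign-change permutation test, two-sided p = 0.109). Without Cortex 0 it was 466.2 UMIs with an exact p of 0.0313, and with a stricter rule of 3 UMIs it was 769 UMIs with an exact p of 0.0469. Number 0 stood apart, as its cortical libraries were the deepest per nucleus and its hippocampal libraries the shallowest. RNA of other cell types was present: 48 members and 173 other GABA nuclei had 5 or more UMIs of a glial or vascular marker list, and 67 members and 189 other GABA nuclei had 5 or more UMIs of the excitatory neuron list. Any pair of libraries shared at most 3 cell barcodes, none of them between members.

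Lineage genes that were not used for membership were summed per unit, as a description without a test. The summed level of 28 CGE-associated genes was 3114 CPM in members, with a range over units of 1930 to 4009, and 1851 CPM in other GABA nuclei, with a range of 1453 to 2490. The summed level of 22 MGE-associated genes was 921 CPM in members (668 to 1072) and 1629 CPM in other GABA nuclei (1257 to 1928), so the MGE ranges did not overlap and the CGE ranges did. The MGE genes Nkx2-1, Lhx8 and Chodl had no UMI in members. Markers of general GABA identity outside the membership genes had 1181 CPM in members, 930 CPM in other GABA nuclei and 156 CPM in nuclei with fewer than 2 Gad UMIs. The excitatory neuron list had 1761 CPM in members, 1681 CPM in other GABA nuclei and 2603 CPM in nuclei with fewer than 2 Gad UMIs. The members as a group thus carried on average more CGE-associated and less MGE-associated RNA than the other GABA nuclei. The membership rule itself favours this, as it placed GABA nuclei with Pvalb, Lhx6 or more than 1 Sst UMI among the other GABA nuclei. The lists were also chosen with earlier results of these data known. Here and in the tests below, the direction of both lists is therefore no independent check of the label.

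Which other genes set members apart from the other GABA nuclei was tested on UMI sums per unit and class with edgeR's quasi-likelihood test, with the unit as a block, in the 7 units that held at least 10 members. Hippocampus 2, with 9 members, was left out. Of 5872 genes tested outside the membership genes, 4 were higher (0.0681%) and 12 lower (0.204%) in members at an adjusted p under 0.05 (Benjamini-Hochberg), together 0.272% of the genes tested. The higher genes were Dlx6os1, Cxcl14, Npy1r and Yjefn3. Among the lower genes were Cacna2d2, Kcnc1, Gria1, Lsamp, Bcan and the condensin gene Smc2. The other 6 lower genes were haemoglobin genes, Gkn3 and Apod.

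Cxcl14, a secreted chemokine found in many CGE interneurons (chr13:56288643-56296551, GRCm38), was among the CGE-associated genes. In members it had 34.6, 185 and 245 CPM in Hippocampus 0, 1 and 3 and 244, 195, 330 and 197 CPM in Cortex 0, 1, 2 and 3. In other GABA nuclei it had 66.2, 53.0 and 36.5 CPM in the hippocampal units and 61.2, 56.6, 29.5 and 122 CPM in the cortical units. Members were the higher class in every unit except Hippocampus 0, by 1.73 on the log2 scale (SE 0.28, adjusted p = 0.000156). A Cxcl14 UMI was found in 28.8% of members and 10.4% of other GABA nuclei, and the difference passed with each unit left out in turn.

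Dlx6os1 is a long noncoding RNA transcribed antisense to Dlx6 (chr6:6820189-6871592, minus strand, GRCm38), in a locus of homeobox genes that direct GABA neuron development. Members had 277, 323 and 359 CPM in the hippocampal units and 487, 266, 279 and 250 CPM in the cortical units. Other GABA nuclei had 232, 150 and 140 CPM in the hippocampal units and 150, 201, 122 and 117 CPM in the cortical units, so the classes did not overlap. The difference was 1.05 on the log2 scale (SE 0.19, adjusted p = 0.000906), and nuclei with fewer than 2 Gad UMIs had 10.5 CPM. Without Cortex 0 the adjusted p was 0.129. No source used here says whether the counting used strand, so reads of Dlx6 cannot be told apart from those of Dlx6os1.

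Npy1r, the Y1 receptor for neuropeptide Y, averaged 93.7 ± 45.2 CPM in members and 33.9 ± 20.7 CPM in other GABA nuclei (SD, n = 7 units) and was higher in members in 7 of 7 units. The difference was 1.51 on the log2 scale (SE 0.33, adjusted p = 0.0168), and a UMI was seen in 23.9% of members and 7.8% of other GABA nuclei. Leaving out Hippocampus 0, Cortex 0 or Cortex 3 ended this call, with adjusted p of 0.0976, 0.512 and 0.111. Yjefn3, a relative of the apolipoprotein A-I binding protein, averaged 109 ± 69.9 CPM in members and 24.1 ± 10.9 CPM in other GABA nuclei (adjusted p = 0.00039, edgeR). Yjefn3 was higher in members in 6 of 7 units, 14 of its 75 member UMIs came from 1 nucleus, and without Cortex 0 its adjusted p was 0.384.

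Cacna2d2, an auxiliary α2δ subunit of voltage-gated calcium channels (chr9:107399612-107529343, GRCm38), was lower in members. It had 17.3, 46.2 and 113 CPM in members of the hippocampal units and 44.3, 81.9, 76.2 and 35.8 CPM in members of the cortical units. Other GABA nuclei had 126, 354 and 170 CPM in the hippocampal units and 158, 170, 143 and 131 CPM in the cortical units. Every member value lay below every value of the other GABA nuclei, with a difference of -1.54 on the log2 scale (SE 0.27, adjusted p = 0.000674). A Cacna2d2 UMI was seen in 12.5% of members and 33.3% of other GABA nuclei. The call passed with each unit left out, but it was lost in some other settings. It was kept in 14 of 18 alternatives, with an adjusted p of up to 0.422.

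Kcnc1 encodes Kv3.1, a potassium channel that allows fast spiking. It averaged 291 ± 55.1 CPM in members and 549 ± 138 CPM in other GABA nuclei, again without overlap between the classes (log2 difference -0.88, SE 0.17, adjusted p = 0.00236). Gria1, an AMPA receptor subunit, averaged 551 ± 236 CPM in members and 950 ± 352 CPM in other GABA nuclei (log2 difference -0.75, SE 0.16, adjusted p = 0.00915). Gria1 was lower in members in 7 of 7 units, and its level in other GABA nuclei was itself higher in hippocampus, at 1165, 1361 and 1424 CPM, than in cortex, at 632 to 720 CPM. Without Cortex 0 the adjusted p was 0.0798 for Kcnc1 and 0.0869 for Gria1, and without Cortex 1 it was 0.0801 for Kcnc1. By DESeq2 the adjusted p was 0.14 for Kcnc1 and 0.41 for Gria1.

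Lsamp, a neuronal adhesion protein, averaged 177 ± 83.6 CPM in members and 323 ± 52.3 CPM in other GABA nuclei (adjusted p = 0.0332). Bcan, the proteoglycan brevican, which is part of perineuronal nets and is also made by astrocytes and oligodendrocyte precursors, averaged 73.3 ± 52.1 CPM in members and 153 ± 62.2 CPM in other GABA nuclei (adjusted p = 0.0481). Smc2 averaged 65.1 ± 34.1 CPM in members and 141 ± 38.7 CPM in other GABA nuclei (adjusted p = 0.0316). Lsamp was lost without Hippocampus 0, Hippocampus 3 or Cortex 0, Smc2 without Hippocampus 3 or any of Cortex 0, 1 and 2, and Bcan without any of 5 units (adjusted p of 0.0535 to 0.432 over these fits). The astrocyte list moved the same way as Bcan, with 889 CPM in members and 1351 CPM in other GABA nuclei and all 7 of its genes tested negative in direction (median -0.69, none called), and its part in Bcan was not tested.

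**Figure D2:**
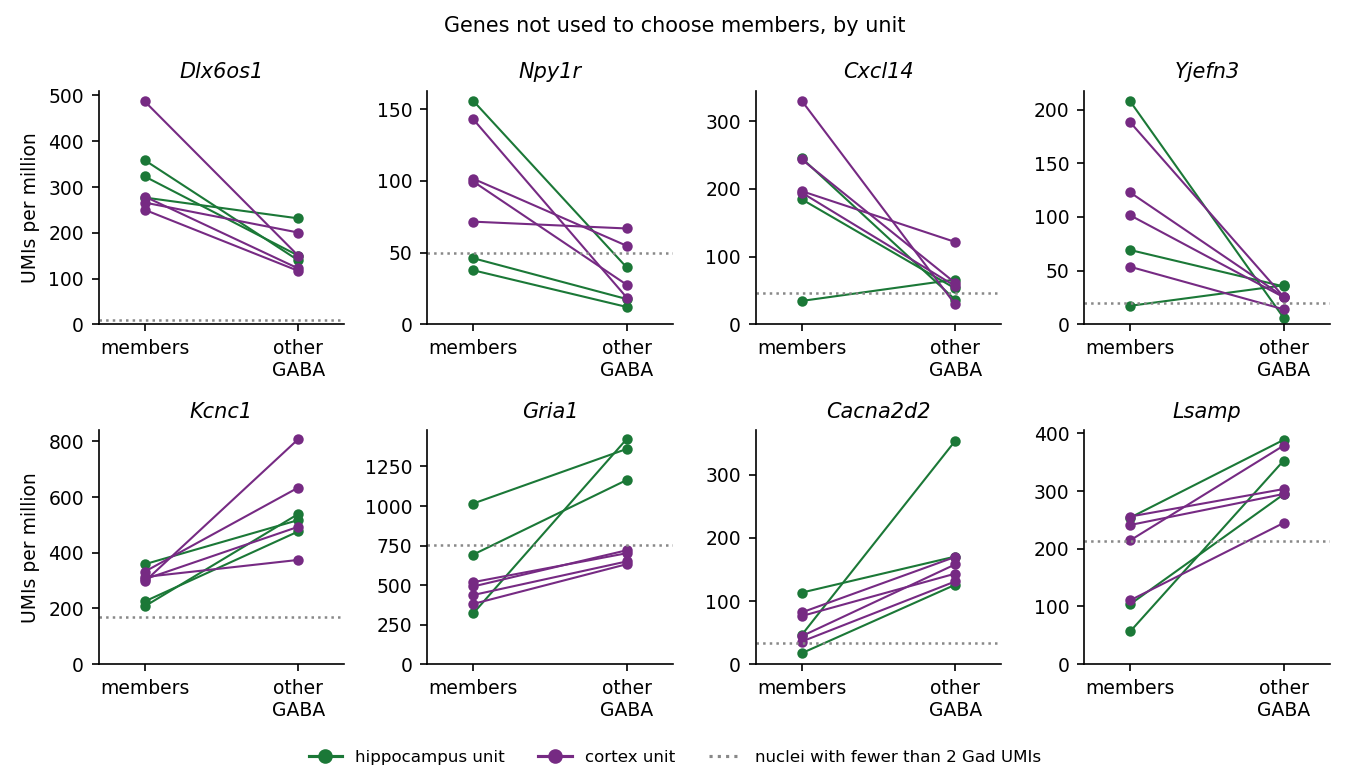
CPM of 8 genes in members, left, and other GABA nuclei, right, with a line joining the points of each of 7 units and a dotted line for nuclei with fewer than 2 Gad UMIs. Dlx6os1, Cacna2d2 and Kcnc1 show no overlap between the classes, and Cxcl14 and Yjefn3 run against the other units in Hippocampus 0.

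The haemoglobin genes were lower in members through few nuclei. Hbb-bs, a beta chain of adult haemoglobin, averaged 50.6 ± 39.9 CPM in members and 396 ± 516 CPM in other GABA nuclei (adjusted p = 9.27e-08, edgeR's quasi-likelihood test), but 531 of its 933 UMIs in other GABA nuclei came from 1 nucleus. Single nuclei likewise held 124 of 246 Hba-a1 UMIs, 114 of 198 Hbb-bt UMIs and 102 of 186 Hba-a2 UMIs, and reads of these near-identical copies may be split between them. Gkn3 had no UMI in members and 141 UMIs in 11 other GABA nuclei. Apod, a lipocalin, had 71 of its 278 UMIs in 1 of the other GABA nuclei. The endothelial and mural list had 1338 CPM in members, with a range over units of 0 to 4267, and 1025 CPM in other GABA nuclei, with a range of 8.57 to 1998, and its part in these genes was not tested.

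Of the 28 CGE-associated genes 18 passed the filter on low counts, of which 17 were positive and 1 negative in direction and 1, Cxcl14, passed the test, with a median log2 difference of 0.76. The median over all 5872 genes was -0.11, with 1972 positive and 3900 negative. Without Cortex 0 the CGE list had 14 genes tested, 10 positive and 4 negative, with a median of 0.33. Members of the list that did not pass included Tac2, which encodes neurokinin B, at 64.1 ± 43.1 CPM in members and 17.7 ± 18.5 CPM in other GABA nuclei (adjusted p = 0.113). Igf1, a growth factor secreted by Vip cells, had 78.5 CPM in members and 38.8 CPM in other GABA nuclei (adjusted p = 0.26). Cck, the neuropeptide of a basket cell type, averaged 323 ± 136 CPM in members and 190 ± 79.8 CPM in other GABA nuclei (adjusted p = 0.398). Nr2f2 and Prox1, transcription factors of the CGE, averaged 66.7 ± 37.8 and 68.9 ± 66.9 CPM in members and 27.1 ± 22.6 and 33.9 ± 32.2 CPM in other GABA nuclei (adjusted p of 0.268 and 0.301). Prox1 is also expressed by dentate granule neurons, and hippocampal nuclei with fewer than 2 Gad UMIs had 135 CPM of it, against 8.6 CPM in such nuclei of cortex.

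Of the 22 MGE-associated genes 7 passed the filter, all 7 negative in direction, with a median of -0.88, and Kcnc1 passed the test. Satb1, a chromatin organiser needed by somatostatin cells, Grin3a, an NMDA receptor subunit, Kcnc2, which encodes Kv3.2, and Nxph1, a neurexin ligand, had differences of -0.90, -1.05, -0.79 and -0.84 with adjusted p between 0.255 and 0.378. With RLE in place of TMM scaling the median of all genes moved to 0.01 and the calls split into 9 higher and 9 lower. With RLE the CGE list stood at 17 positive and 1 negative and the MGE list at 7 negative.

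Channel and receptor genes mostly did not pass, and their directions are to be read beside the 1972 positive and 3900 negative genes of all those tested. Of 21 potassium channel genes tested 10 were positive and 11 negative, and Kcnc1 alone passed. Of 18 sodium, calcium and HCN channel genes 6 were positive and 12 negative, and Cacna2d2 passed. Of 10 ionotropic glutamate receptor genes 2 were positive and 8 negative, and Gria1 passed. None of 11 GABA-A receptor genes, 5 monoamine and acetylcholine receptor genes, 7 endocannabinoid enzyme genes, 14 cadherins or 21 axon guidance genes passed. Npy1r was the 1 call among 4 neuropeptide receptor genes, and none of 6 neuropeptide genes tested outside the membership genes passed, although 5 were positive. Of 23 transcription factor genes 16 were positive and 7 negative, with a median of 0.21 and no call.

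Set against the Lhx6/Sst/Pvalb nuclei, a subset of the other GABA nuclei, members differed in 16 of 3405 genes tested, 10 higher (0.294%) and 6 lower (0.176%), together 0.47%. Sst, Pvalb and Lhx6 defined both classes and were left out. Because these nuclei also belong to the other GABA nuclei and the members are the same, this comparison is not a second experiment. Median depth was 2358 UMIs per member and 2942 per Lhx6/Sst/Pvalb nucleus.

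Among CGE-associated genes 4 were called higher in members. Kit, a receptor tyrosine kinase found on neurogliaform and other superficial interneurons, had 18.2, 48.2 and 59.5 CPM in members of the hippocampal units and 231, 115, 168 and 227 CPM in members of the cortical units. Lhx6/Sst/Pvalb nuclei had 27.5, 53.6 and 0 CPM of Kit in the hippocampal units and 43.1, 33.2, 38.2 and 13.5 CPM in the cortical units. All 4 cortical units were therefore higher in members, and in hippocampus 1 of 3 was (log2 difference 2.09, SE 0.39, adjusted p = 0.00238). A Kit UMI was seen in 57 of 184 members and 13 of 190 Lhx6/Sst/Pvalb nuclei. Without Cortex 0 the adjusted p was 0.287 and without Cortex 3 it was 0.0754.

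Rgs12, a regulator of G protein signalling, averaged 163 ± 132 CPM in members and 42.8 ± 47.1 CPM in Lhx6/Sst/Pvalb nuclei (adjusted p = 0.000514, edgeR), with 21 of 127 member UMIs in 1 nucleus, and was lost without Cortex 0 (adjusted p = 0.194). Nfib, a nuclear factor I transcription factor, averaged 344 ± 107 CPM in members and 167 ± 98.2 CPM in Lhx6/Sst/Pvalb nuclei and was higher in members in 7 of 7 units (adjusted p = 0.02), but 313 CPM were also found in nuclei with fewer than 2 Gad UMIs, and without Cortex 0 its adjusted p was 0.316. Cxcl14 differed by 1.72 on the log2 scale (adjusted p = 0.00676, and 0.0854 without Cortex 2). Dlx6os1 averaged 331 ± 82.5 CPM in members and 128 ± 63.6 CPM in Lhx6/Sst/Pvalb nuclei, a difference of 1.35 (SE 0.22, adjusted p = 0.000471) that passed with each unit left out. Kcnn2, Npy1r and Yjefn3 were also called higher in members. With a unit left out, they were kept in 3 of 7, 3 of 5 and 4 of 6 of the fits that tested them.

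The lower genes, apart from Smc2 and Cacna2d2, were known for the other lineage or for glutamate receptors. Gria1 averaged 572 ± 250 CPM in members and 1216 ± 652 CPM in Lhx6/Sst/Pvalb nuclei (log2 difference -0.97, adjusted p = 0.000786), with 728, 1060 and 337 CPM in members and 1168, 2279 and 1988 CPM in Lhx6/Sst/Pvalb nuclei of the hippocampal units. Grin3a averaged 64.7 ± 54.8 CPM in members and 171 ± 85.0 CPM in Lhx6/Sst/Pvalb nuclei (-1.67, adjusted p = 0.00315). Satb1 averaged 69.1 ± 48.9 CPM in members and 168 ± 83.4 CPM in Lhx6/Sst/Pvalb nuclei (-1.20, adjusted p = 0.0304). Crhbp, the binding protein of corticotropin-releasing hormone, had 9 UMIs in members and 73 in Lhx6/Sst/Pvalb nuclei (adjusted p = 0.0131). Smc2 averaged 67.7 ± 36.2 CPM in members and 212 ± 95.1 CPM in Lhx6/Sst/Pvalb nuclei (-1.70, adjusted p = 0.000471). Gria1 and Smc2 passed with each unit left out, while without Cortex 0 the adjusted p was 0.153 for Grin3a, 0.144 for Satb1 and 0.365 for Crhbp. Cacna2d2 was also called lower here and was kept in 4 of 7 fits with a unit left out.

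Of 7 MGE-associated genes tested all 7 were negative and 3 passed (median -1.14, against -0.05 over all 3405 genes), and of 13 CGE-associated genes 10 were positive and 3 negative (median 0.51). Kcnc1, which differed from the other GABA nuclei as a whole, did not pass here (log2 difference -0.63, adjusted p = 0.209). Slco1c1, a thyroid hormone transporter, was called higher in members (adjusted p = 0.0157), but only 15 members had a UMI and 22 of 92 UMIs came from 1 of them, and its adjusted p was 0.212 without Hippocampus 0 and 0.211 without Cortex 0. All 5 endothelial and mural genes tested were positive in direction with none called (median 1.03), and their part in Slco1c1 was not tested. The mitochondrial ribosomal RNA mt-Rnr2 was called higher (adjusted p = 0.042), with 56 of 234 member UMIs in 1 nucleus, and was kept in 1 of 7 fits with a unit left out (adjusted p up to 0.457). The number of calls fell to 6 without Cortex 0, to 6 without Cortex 3 and to 0 without the unit block.

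Members were a smaller part of the hippocampal than of the cortical nuclei. They were 0.548, 1.04, 0.848 and 1.46% of all nuclei in Hippocampus 0, 1, 2 and 3, against 3.14, 1.85, 1.81 and 2.26% in Cortex 0, 1, 2 and 3. Hippocampus averaged 0.974 ± 0.381% and cortex 2.26 ± 0.618% (SD over 4 units per region), without overlap (exact permutation test, two-sided p = 0.0286, the smallest that 4 against 4 units allow). Of the GABA nuclei, members were 14.9, 16.4, 13.4 and 18.5% in hippocampus and 28.7, 25.4, 21.0 and 28.6% in cortex (15.8 ± 2.15% in hippocampus against 25.9 ± 3.60% in cortex, exact p = 0.0286). Leaving out any 1 of the 4 hippocampal units gave an exact p of 0.0571 for this share. The regions still did not overlap in these fits, so this p follows from the smaller number of units and not from overlap. A stricter rule of 3 UMIs also gave 0.0571, with overlap, at 5.26 to 17.7% in hippocampus and 15.4 to 24.5% in cortex. Leaving Cnr1 out of the rule gave 0.0857.

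Depth per nucleus differed between the regions. Of the hippocampal nuclei 1426 had fewer than 600 UMIs, against 43 of the cortical nuclei. When each nucleus was thinned to 600 UMIs and shallower nuclei left out, members were 0.226% of hippocampal and 0.319% of cortical nuclei (exact p = 0.486), and 9.88% of hippocampal and 11.6% of cortical GABA nuclei (exact p = 0.743). Thinning kept few members, 2, 0, 4 and 3 in Hippocampus 0 to 3 and 2, 5, 6 and 6 in Cortex 0 to 3. Without nuclei over 3 times their library's median UMIs the differences were -1.03 and -9.77 percentage points (exact p = 0.0286 for both). Without Cortex 0 the difference in the share of all nuclei was -0.9999 percentage points (exact p = 0.0571). The median UMIs of the members themselves were 2829, 2480, 2019 and 2172 in hippocampus and 2926, 1909, 2141 and 2358 in cortex (exact p = 0.857).

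**Figure D3:**
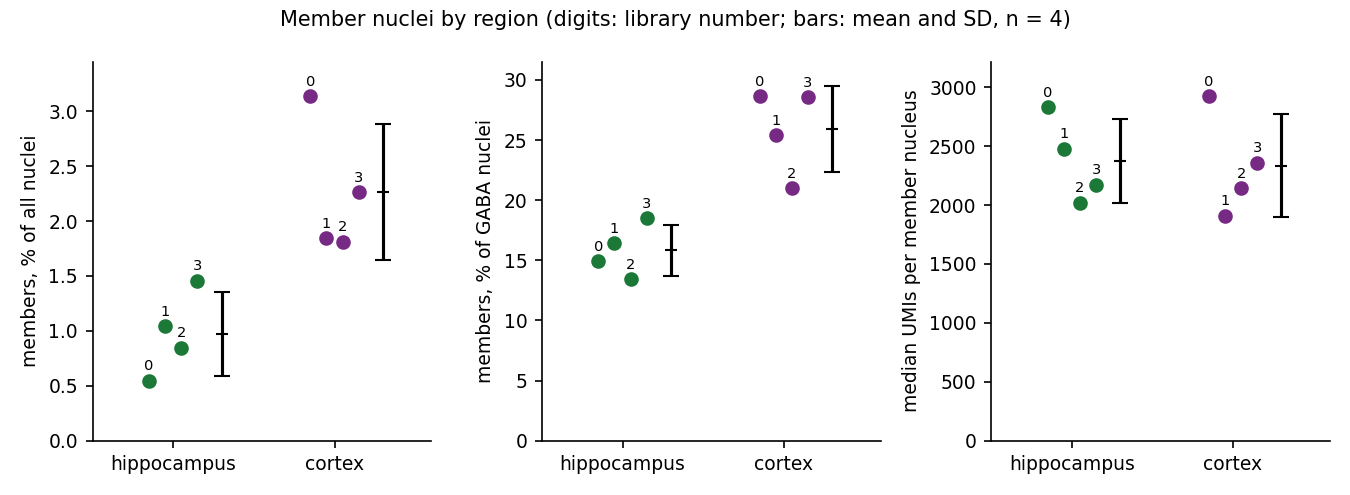
Members per unit as a percent of all nuclei, as a percent of GABA nuclei, and their median UMIs, hippocampus left of cortex, with 1 point per unit and bars for the mean and SD (n = 4 units). The 4 hippocampal units lie below the 4 cortical units in both shares, at 0.548 to 1.46% against 1.81 to 3.14% of all nuclei without thinning, and overlap with them in median UMIs.

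The class genes were counted in each region, as a description. Vip was seen in 5 of 50 hippocampal members (exact 95% interval 3.33 to 21.8%) and 49 of 134 cortical members (36.6%, 28.4 to 45.3%), while Adarb2 was seen in 38 hippocampal members (76.0%, 61.8 to 86.9%) and 82 cortical members (61.2%, 52.4 to 69.5%). As class genes chose the members, no test was made, and the intervals cover counting error over pooled nuclei only. By unit, Vip had 473, 0, 154 and 279 CPM in hippocampal members and 630, 533, 432 and 305 CPM in cortical members. Adarb2 had 611, 419, 463 and 729 CPM in hippocampal members and 630, 348, 576 and 198 CPM in cortical members. The regions overlapped in both genes. Of the genes found in neurogliaform cells, Lamp5 was seen in 5 hippocampal and 46 cortical members, and Reln and Ndnf each in 13 hippocampal (26.0%) and 24 cortical members (17.9%). Of other genes outside the rule, Kit was seen in 8 hippocampal and 49 cortical members, Npy in 9 and 55, Cck in 13 and 69, and Cxcl14 in 10 and 43.

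Between the regions, 17 of 1873 genes tested in members passed, 1 higher (0.0534%) and 16 lower (0.854%) in hippocampus, together 0.908%, from 3 hippocampal and 4 cortical units. The median over all genes was -0.27 on the log2 scale, so that a typical gene was lower in hippocampus, and with RLE scaling it was -0.07 with 4 calls higher and 12 lower. All 16 lower genes were also lower in hippocampus among the nuclei with fewer than 2 Gad UMIs, and the 1 higher gene was higher there too. Of all 1873 genes, 540 were positive and 1333 negative in members. How many of these share their direction with the nuclei with fewer than 2 Gad UMIs was not counted, so this agreement has no background to be read against.

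R3hdm1, which encodes a protein with an R3H domain (chr1:128103301-128237736, GRCm38), had 273, 458 and 323 CPM in members of Hippocampus 0, 1 and 3, against 1403, 1389, 1344 and 1306 CPM in members of Cortex 0, 1, 2 and 3. The groups were far apart (log2 difference -1.97, SE 0.24, adjusted p = 0.000273), and the call passed with each unit left out, as did that of Stx1a in the 5 such fits that could test it. Each of the other 15 calls was lost without at least 1 unit, and Mal was kept in 0 of 4 such fits, Sv2b in 1 of 3, and Gria3 and Ppp1r9a in 1 of 7 each. Nuclei with fewer than 2 Gad UMIs had 885 CPM of R3hdm1 in hippocampus and 1728 CPM in cortex. Stx1a, a SNARE protein of synaptic vesicle fusion, had no UMI among 135569 UMIs of hippocampal members and 82 among 475904 UMIs of cortical members (adjusted p = 0.00486). With a floor of 3 counts over the hippocampal group it was at least 7.79-fold lower there, and nuclei with fewer than 2 Gad UMIs had 87.2 CPM in hippocampus and 272 CPM in cortex.

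Further genes were lower in hippocampal members. Plk2, a kinase induced by activity, had 54.7, 96.5 and 80.8 CPM in hippocampal members and 279, 321, 353 and 420 CPM in cortical members (log2 difference -2.15, adjusted p = 0.00865). Camkk2, which activates CaM kinases, had 54.7, 72.4 and 60.6 CPM in hippocampal members and 343, 192, 312 and 355 CPM in cortical members (-2.27, adjusted p = 0.00865). Lmo4, a LIM-domain transcriptional regulator, had 72.9, 145 and 20.2 CPM in hippocampal members and 250, 427, 380 and 401 CPM in cortical members (-2.22, adjusted p = 0.0152). Mef2c, a transcription factor of cortical neurons, had 237, 96.5 and 283 CPM in hippocampal members and 600, 790, 665 and 569 CPM in cortical members (-1.63, adjusted p = 0.0137). Gria3, an AMPA receptor subunit, had 620, 506 and 444 CPM in hippocampal members and 1048, 1036, 1059 and 1110 CPM in cortical members (-1.01, adjusted p = 0.0288). In each of these genes the lowest cortical unit lay above the highest hippocampal unit. Lack of overlap was a condition for naming genes by their fold change, so it is no added support for them.

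The other lower genes were Tyro3, Sorbs2, Camk2n1, Arpp21, Kalrn, Cdk5r1, Sv2b, Ppp1r9a and A830036E02Rik, with log2 differences of -4.41 to -1.42. Mef2c also stands in the excitatory neuron list. That list had a median of 1491 CPM in hippocampal members, with a range of 536 to 1694, and 1891 CPM in cortical members, with a range of 1623 to 2327, and its part in these calls was not tested. Mal, a protein of myelin, was the 1 gene higher in hippocampal members, at 182, 145 and 263 CPM against 64.0, 32.0, 27.2 and 37.3 CPM in cortical members (log2 difference 2.15, adjusted p = 0.0458). The oligodendrocyte list moved the same way, with a median of 2020 CPM in hippocampal members and 738 CPM in cortical members, and 2628 CPM in hippocampal and 607 CPM in cortical nuclei with fewer than 2 Gad UMIs, and its part in Mal was not tested.

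Kit had 18.2, 48.2 and 60.6 CPM in hippocampal members and 239, 118, 177 and 224 CPM in cortical members without overlap, and did not pass (adjusted p = 0.0538). In nuclei with fewer than 2 Gad UMIs it ran the other way, with 21.3 CPM in hippocampus and 9.42 CPM in cortex. The number of calls between regions was 1 without Cortex 3, 8 without Hippocampus 0, 10 without Hippocampus 3 and 35 without Cortex 0. It was 3 with Cnr1 left out of the membership genes, and 5 without nuclei that had 5 or more UMIs of a glial or vascular list.

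Whether the regional difference in members differed from that in other GABA nuclei was tested by the interaction of region and class. None of 5872 genes passed (0.0%), with edgeR or with DESeq2, and 557 genes had an unadjusted p under 0.05 with edgeR and 182 with DESeq2. The interaction of R3hdm1 was -1.39 on the log2 scale (adjusted p = 0.087). In simulated data this test recovered 6.52% of genes changed by 1 and 54.1% of those changed by 2 on the log2 scale. The regional differences are therefore not shown to be particular to members, nor to be shared. The count rose to 27 without Cortex 0 and to 11 without Hippocampus 1.

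**Figure D4:**
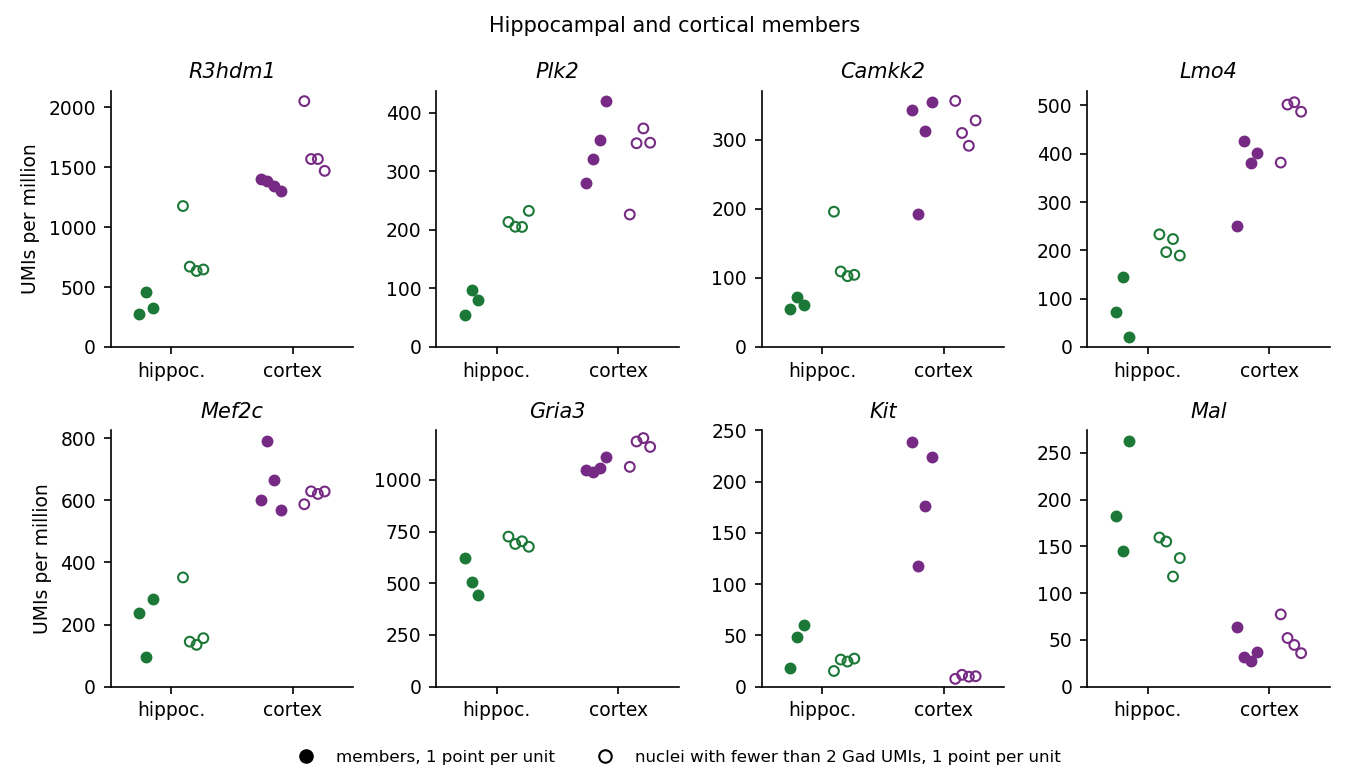
CPM of 8 genes per unit, hippocampus left of cortex, with filled points for members (3 and 4 units) and open points for nuclei with fewer than 2 Gad UMIs (4 units each). R3hdm1 lies at 273 to 458 CPM in hippocampal and 1306 to 1403 CPM in cortical members, Mal is higher in hippocampus, and the open points follow the filled ones in direction except for Kit.

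The members were split by their own markers. A nucleus with a Vip UMI and more Vip than Ndnf, Reln and Lamp5 UMIs together was called a Vip nucleus, and one with 2 or more UMIs of Ndnf, Reln and Lamp5 and no Vip UMI an Ndnf/Reln/Lamp5 nucleus. This gave 42 Vip and 44 Ndnf/Reln/Lamp5 nuclei with 140391 and 179168 UMIs in all, and left 98 members in neither. The Vip nuclei numbered 2, 0, 1 and 2 in Hippocampus 0 to 3 and 12, 11, 5 and 9 in Cortex 0 to 3. The Ndnf/Reln/Lamp5 nuclei numbered 1, 2, 4 and 6 in the hippocampal and 17, 2, 6 and 6 in the cortical units. Only Cortex 0 held 10 of both, so no test across units was run. UMIs are given as sums with intervals that cover counting error only and treat UMIs as independent, and genes were named by the interval of their ratio after the counts were seen.

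Several peptide genes lay on the Vip side of the split. Penk, the enkephalin precursor, had 30 UMIs in 15 Vip nuclei and 2 UMIs in 1 Ndnf/Reln/Lamp5 nucleus. Tac2 had 30 UMIs in Vip and 3 in Ndnf/Reln/Lamp5 nuclei, a ratio per UMI of 12.8 (3.97 to 65.3). Crh, corticotropin-releasing hormone, had 15 UMIs in 6 Vip nuclei and none in Ndnf/Reln/Lamp5 nuclei. Synpr, the synaptic vesicle protein synaptoporin, had 32 UMIs in Vip and 4 in Ndnf/Reln/Lamp5 nuclei (10.2, 3.62 to 39.7).

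On the other side, Npy, neuropeptide Y, had 21 UMIs in Vip and 100 in Ndnf/Reln/Lamp5 nuclei, 3.73-fold more per UMI in the Ndnf/Reln/Lamp5 nuclei (2.31 to 6.29). Hapln1, a link protein of the extracellular matrix, had 2 UMIs in Vip and 27 in Ndnf/Reln/Lamp5 nuclei. Robo2, a Slit receptor of axon guidance, had 16 and 47 UMIs in Vip and Ndnf/Reln/Lamp5 nuclei. Endothelial and pericyte RNA also lay on this side, with 8 Flt1 and 15 Rgs5 UMIs in Vip and 174 Flt1 and 271 Rgs5 UMIs in Ndnf/Reln/Lamp5 nuclei, from 1 Vip and 5 Ndnf/Reln/Lamp5 nuclei with 5 or more UMIs of the endothelial and mural list.

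With nuclei that had 5 or more UMIs of a glial or vascular list left out, 27 Vip and 30 Ndnf/Reln/Lamp5 nuclei remained, with 50973 and 80757 UMIs. Penk then had 19 UMIs in Vip and 2 in Ndnf/Reln/Lamp5 nuclei, Tac2 18 and 1, Crh 9 and 0, and Synpr 13 and 2. Npy had 4 UMIs in Vip and 42 in Ndnf/Reln/Lamp5 nuclei (78.5 against 520 CPM, 6.63-fold, 2.405 to 25.4). Hapln1 had 0 and 16 UMIs in Vip and Ndnf/Reln/Lamp5 nuclei, Col19a1, a collagen with 28 and 46 in all split nuclei, 4 and 36, Kcnh7, a potassium channel of the erg family, 2 and 30, and Robo2 4 and 30. Igf1 had 17 UMIs in Vip and 6 in Ndnf/Reln/Lamp5 nuclei, Cbln2, a cerebellin of synapse organisation, 11 and 2, and Kit 14 and 33. Flt1 then had 1 UMI in Vip and 2 in Ndnf/Reln/Lamp5 nuclei. These nuclei are a subset of those above and the genes were chosen on the same counts, so the second sums are no independent check.

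**Figure D5:**
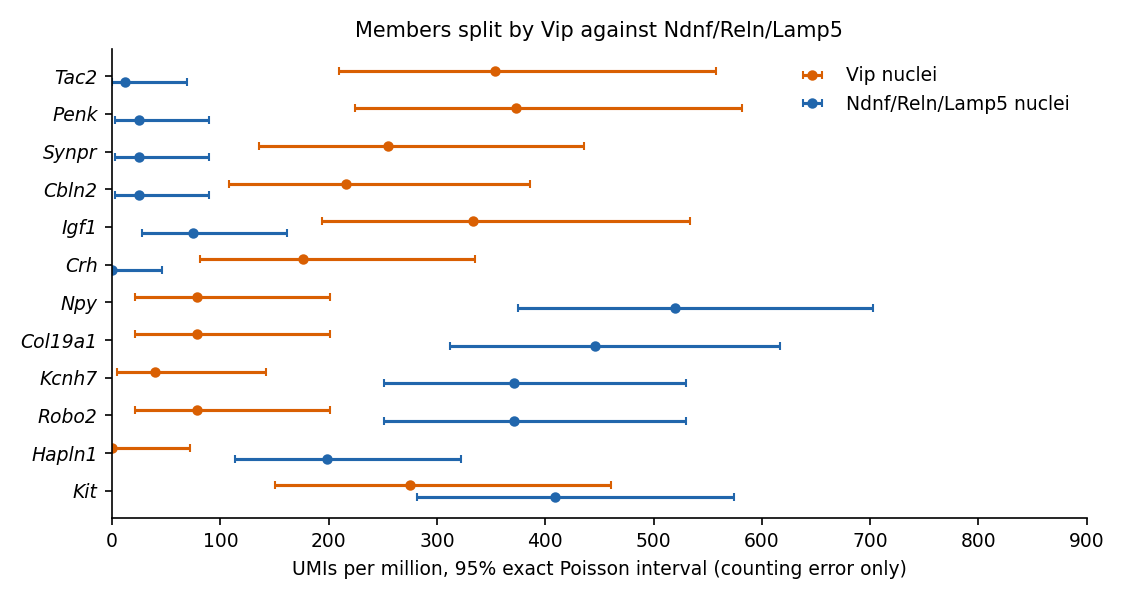
CPM with exact 95% Poisson intervals of 12 genes in 27 Vip nuclei, upper point of each row, and 30 Ndnf/Reln/Lamp5 nuclei, lower point, without nuclei that had 5 or more UMIs of a glial or vascular list. Penk, Tac2, Crh and Synpr lie on the Vip side, Npy (78.5 against 520 CPM) and Hapln1 on the Ndnf/Reln/Lamp5 side, and the intervals of Kit overlap.

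Co-detection was counted within single members. Of 37 members with an Ndnf UMI 20 also had a Reln UMI, where Reln is the extracellular glycoprotein reelin. Of 27 members with a Penk UMI 17 also had a Vip UMI, as did 15 of 22 with a Tac2 UMI and 7 of 10 with a Crh UMI. Only 3 members had UMIs of both Vip and Ndnf, out of 54 with Vip and 37 with Ndnf. Both are class genes and a member could pass on either alone. The membership rule itself thus bears on this overlap, which was not tested. A Penk and an Ndnf UMI were found together in 1 member, and a Crh and an Ndnf UMI in 0. Lamp5 and Npy were found together in 30 members, of 51 with Lamp5 and 64 with Npy. The product of the shares of both genes would give 7.44 members for Ndnf with Reln, 10.9 for Vip with Ndnf and 17.7 for Lamp5 with Npy. For Vip with Penk, Tac2 and Crh it would give 7.92, 6.46 and 2.93. For Ndnf it would give 5.43 with Penk and only 2.01 with Crh, so the 0 rests on few nuclei. No pair was tested against these values. Calb2, which encodes calretinin and marks a part of Vip cells, was seen in 8 members, Nos1, the neuronal nitric oxide synthase, in 12, and Sncg, which marks Cck basket cells, in 3. Deeper nuclei show more genes at once, so these counts are descriptions of co-detection at the depth of each nucleus.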

How the data were processed

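The authors deposited a table of UMI counts for 23589 genes in 13313 nuclei, and 1689 columns that match no labelled sample were not used. STAR and Seurat are named with the mm10 genome in the submitters' processing notes, and strand and intron use are not given in the sources used here. Members and gene lists were chosen with earlier results of these data known. UMIs were summed per unit and class where a unit held at least 10 nuclei of each class, and tested with edgeR 4.0.16 (R 4.3.3, quasi-likelihood, TMM, filterByExpr), with the unit as a block for class contrasts and p adjusted over all genes tested. The 13 membership genes stayed in library sizes and out of the tests. CPM per unit of genes tested with edgeR use TMM-scaled library sizes. Raw totals were used for CPM per unit of class genes and of summed gene lists, of nuclei with fewer than 2 Gad UMIs, and of sums over nuclei. Shares were compared by exact permutation tests (scipy 1.17.1). DESeq2 1.42.0 served as an alternative. No doublet caller was run, and mixed, very deep and glial nuclei were left out in alternatives instead.

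Named genes passed the test in the same direction in every unit (between regions, without overlap) with 50 CPM or more in the higher group, or were among the 4 smallest p of a list. At most 12 per direction were named in the class comparisons, with a lower cap between regions. Yjefn3, the haemoglobin genes, Gkn3 and Apod, and Sorbs2, Camk2n1, Arpp21, Kalrn, Ppp1r9a and A830036E02Rik fell outside this rule and were chosen after their values were seen. On simulated data the members against other GABA test recovered 64.9% of genes changed by 1 and 100.0% of those changed by 2 on the log2 scale, and the test between regions 36.4% and 93.9%.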

Additional observations from a re-analysis of the deposited data

Results flagged for a closer look

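In 8 of 120 groups of units tested, 1 unit lay far from the others of its group. Chance alone flags about 1 group in 20. In members, Prox1 reached 207.8 CPM in Hippocampus 0, and mt-Rnr2 reached 1329 CPM in 1 unit. In other GABA nuclei, Cxcl14 reached 121.6 CPM in Cortex 3, Bcan reached 280.7 CPM in Cortex 3, and Cacna2d2 reached 353.5 CPM in Hippocampus 1. In Lhx6/Sst/Pvalb nuclei, single units reached 160.9 CPM for Kcnn2, 402.1 CPM for Crhbp and 375.3 CPM for Cacna2d2.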

How the results depend on the processing

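Counts of calls moved with most settings. Against other GABA nuclei, the 16 calls became 26 without a filter on low counts, 4 with DESeq2, 4 with numbers 1 to 3 only, 4 without the replicate block, 6 in hippocampal units only, 38 with a stricter membership rule of 3 UMIs, 39 without Cnr1 in the rule, 53 without very deep nuclei (over 3 times their library's median UMIs), and 5 to 27 with 1 unit left out (5 without Cortex 0, 27 without Hippocampus 1, 26 without Cortex 3). Against Lhx6/Sst/Pvalb nuclei, the 16 calls became 38 without the filter, 6 with DESeq2, 6 with numbers 1 to 3 only, 0 without the replicate block, 0 in hippocampal units only, 9 with the stricter rule, 6 without Cnr1, and 6 to 19 with 1 unit left out. Between regions, the 17 calls became 47 without the filter, 5 with DESeq2, 43 with numbers 1 to 3 only, 34 with the replicate block, 9 with the stricter rule, 3 without Cnr1, 2 without very deep nuclei, 5 without nuclei rich in glial or vascular RNA, and 1 to 35 with 1 unit left out. The interaction, at 0, became 4 with RLE, 18 without the filter, 18 with numbers 1 to 3 only, 4 with the stricter rule, 1 without Cnr1, 1 without very deep nuclei, 2 without glial or vascular nuclei, and 0 to 27 with 1 unit left out. Alternatives on Cnr1, very deep nuclei and glial or vascular nuclei were chosen after seeing the data. The cause was not tested.

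The hippocampus minus cortex difference in the share of all nuclei, -1.29 percentage points, was -0.86 with numbers 1 to 3 only (exact p = 0.1, the smallest possible), -1.29 with the replicate block (exact p = 0.125, the smallest possible), -0.63 with the stricter rule, -1.45 without mixed nuclei (those with a UMI of genes of other cell types, 138 of the members), -0.86 without Cnr1, -1.04 without glial or vascular nuclei, -0.093 after thinning, and -1.45 to -0.9999 with 1 unit left out. Of GABA nuclei, -10.1 percentage points became -8.89 with numbers 1 to 3 only, -10.1 with the replicate block (exact p = 0.125), -7.89 with the stricter rule, -5.00 without mixed nuclei, -5.77 without Cnr1, and -1.68 after thinning. With 1 unit left out the difference was -11.7 to -9.18. The exact p was 0.0571 when that unit was hippocampal, although the regions still did not overlap. Without mixed nuclei the exact p was 0.629 for the share of all nuclei and 0.514 for that of GABA nuclei. Cortex 0 then stood at 7.80% of the nuclei kept and Cortex 1, 2 and 3 at 1.22, 0.971 and 1.25%. The hippocampal units stood at 0.365 to 2.03%. For the share of all nuclei the exact p was 0.0857 with the stricter rule, 0.0571 without Cnr1 and 0.0857 without glial or vascular nuclei. The UMIs per member, 41.5 higher in hippocampus, ranged from -109.8 to 239 with 1 unit left out, and were -109.8 without Hippocampus 0, -100.0 without Cortex 1 and -22.7 without Cortex 2; they were 973 with the stricter rule (exact p = 0.571) and 789.6 without mixed nuclei (exact p = 0.0571). Members minus other GABA nuclei, 321 UMIs, was 551 with numbers 1 to 3 only and 769 with the stricter rule, both past the threshold (exact p of 0.0313 and 0.0469), and 221 to 466.2 with 1 unit left out, past it without Cortex 0 (0.0313). The Vip share of split members, 48.8%, was 37.1% at 2 UMIs and 36.6% at 1 UMI.

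For single genes, 735 alternatives kept direction and call, 263 lost the call, 37 gained it and 1 reversed: mt-Rnr2 was -0.087 without very deep nuclei. Same-numbered units of the regions correlated by -0.113 to 0.124 over 4039 genes, over 0.1 in 2 of 4 pairs, so the numbers were not taken to pair them. Expression tests after thinning or without mixed nuclei were not run, as too few units kept 10 members. Depth limits the hippocampal members most, at 155023 UMIs.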
